A study of Mus musculus with 18 samples.

Results

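Gene expression was compared between Msx1-positive and Msx1-negative cells sorted from mouse embryoid bodies at day 8. The comparison holds 4 of the 18 samples labelled in the study, 2 libraries of each fraction, and all 54114 gene symbols of the count table were considered. Both fractions came from an Msx1-tdTomato embryonic stem (ES) cell line, in which a red fluorescent protein reports Msx1, with the genotype inducible Dlx2 overexpression. Embryoid bodies, cell aggregates in which ES cells differentiate, were grown from hanging drops, and doxycycline at 1 µg/ml, the drug that induces the Dlx2 construct, was given before cells were separated by flow cytometry. The construct and the drug are therefore shared by both fractions. The study's labels hold no uninduced or GFP-expressing group at day 8, and they do not state how long the drug was given, whether the line is 1 clone, or whether the 2 libraries of a fraction came from separate cultures.

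Msx1 and Dlx2 encode homeodomain transcription factors of the pharyngeal arches. Cranial neural crest cells that enter the arches turn into ectomesenchyme, a mesenchyme that forms the bones and cartilage of the face, the dentine-forming odontoblasts and the connective tissue around teeth. Msx1 is active in dental and palatal mesenchyme, and loss of either gene disturbs teeth or jaws in mice. ES cells that leave pluripotency lose the factors Pou5f1, Nanog and Sox2, and cells that turn mesenchymal exchange cadherins and lay down fibrillar collagen.

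The sort could be read back from the libraries. Msx1 (chr5:37820485-37824583 on GRCm38, minus strand) stood at 41.5 and 47.4 CPM in Msx1-positive and 1.92 and 1.03 CPM in Msx1-negative cells, where CPM is the count per 1000000 counts, after scaling for library size and composition. Because the cells were sorted on the Msx1 reporter, this value checks the labels and is not a finding. Dlx2, the induced gene (chr2:71543408-71546754, minus strand), was also higher in the Msx1-positive fraction, at 1152 and 1287 CPM in Msx1-positive and 273 and 275 CPM in Msx1-negative cells (2.15 ± 0.084, adjusted p = 3.63e-11). Counts per symbol do not tell transcripts of the construct from those of the mouse locus. In undifferentiated ES cells, labelled wild type and untreated, Dlx2 was at 219 and 222 CPM, beside 269 and 272 CPM in Msx1-negative cells on the same scale of all 10 libraries of the table.

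Total counts were 65655287 and 107770730 in the Msx1-positive and 63489887 and 56048918 in the Msx1-negative libraries. Differences are log2 differences, Msx1-positive minus Msx1-negative, with a standard error (SE) from edgeR's quasi-likelihood test, and a gene is called higher or lower at an adjusted p below 0.05. Levels written as a pair against a pair are those of the 2 Msx1-positive and then of the 2 Msx1-negative libraries, followed in brackets by the log2 difference ± SE, and the adjusted p of a called gene is printed throughout where it is above 0.001 and otherwise for selected genes. Where libraries share a culture, the p-values cover technical spread only. An exact two-sided permutation test of a single value cannot go below 0.333 here, so each call rests on a spread estimated across genes. In sorted bulk cells, fewer cells of a type and less RNA per cell cannot be told apart.

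Most tested genes differed between the fractions, and the large differences lay mostly on the Msx1-positive side. Of 22294 tested genes 12187 were called (54.7%), 6772 of them higher (30.4%) and 5415 lower (24.3%) in Msx1-positive cells. An absolute log2 difference of at least 1 was reached by 3827 higher and 1317 lower genes, at least 2 by 2089 and 369, and at least 4 by 698 and 23. The share of higher genes among those called was 55.6%. It was 51.3% among genes with 1 CPM in 4 libraries, 52% with RLE scaling, 52.2% with DESeq2 and 57.5% with no filter on low counts. With library size alone as the scale it was 66.8%, and the median of all tested genes moved from 0.0625 to 0.217. Among protein-coding genes 36.7% were higher and 29.1% lower. Antisense transcripts were higher in 17.0% and lower in 7.19% of 960, whereas long intergenic noncoding RNAs were higher in 13.9% and lower in 18.3% of 965. The kit does not mark strand and the counting is not stated, so reads counted for antisense genes may come from the gene on the other strand.

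**Figure D1:**
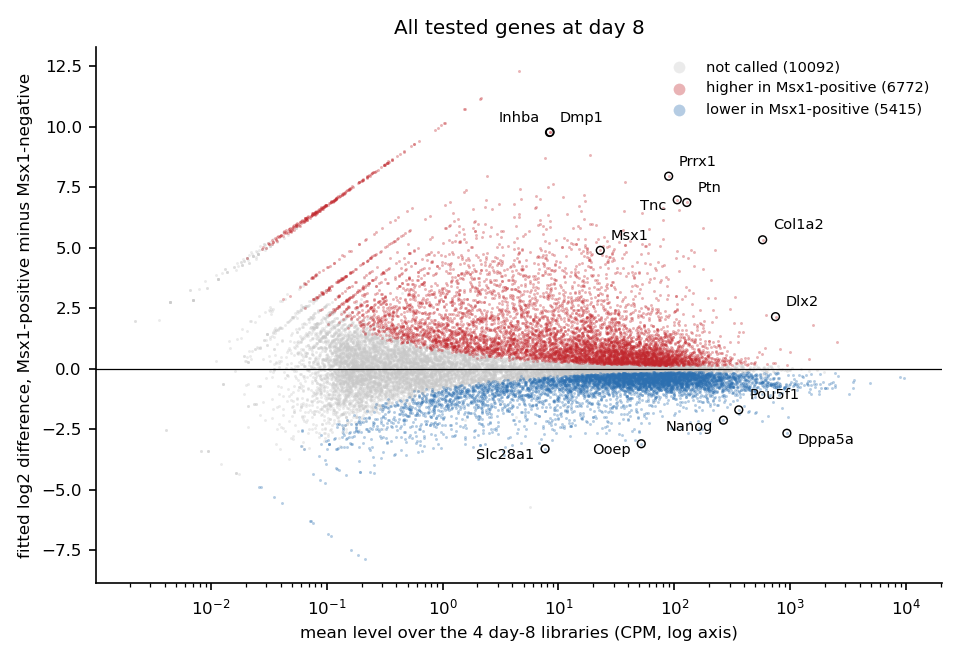
Each point is a tested gene with a count at day 8, with its mean level over the 4 libraries (CPM, log axis) against the fitted log2 difference, Msx1-positive minus Msx1-negative. Red genes were called higher and blue genes lower, and the straight rows of points at the upper left are genes with 0 or a few counts in Msx1-negative cells. The upward cloud reaches further than the downward one: 698 genes were higher by at least 4 and 23 lower by as much.

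The genes with the highest differences, among those with at least 10 CPM in both Msx1-positive libraries, included genes of tooth, bone and face mesenchyme beside a hormone, a water channel and a deiodinase. The 15 were Inhba, Dmp1, Dnm3os, Ambn, Prrx1, Postn, Lhx8, Odam, Amtn, Sst, Epha3, Aqp1, Tnc, Dio2 and Ptn. Inhba, which encodes the activin A subunit made by early tooth mesenchyme, stood at 17.2 and 16.6 CPM in Msx1-positive and 0 and 0.0375 CPM in Msx1-negative cells, the latter resting on 2 counts, a ratio of 962-fold (95% interval 266 to 7945). Dmp1, an acidic phosphoprotein of dentine and bone matrix (chr5:104202613-104214102), stood at 16.3 and 17.2 CPM in Msx1-positive and 0.0329 and 0 CPM in Msx1-negative cells, also 2 counts, a ratio of 961-fold (95% interval 266 to 7940.2). These intervals cover counting error only.

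Prrx1, a homeobox factor of limb and face mesenchyme, was at 177 and 179 CPM in Msx1-positive and 0.855 and 0.562 CPM in Msx1-negative cells (7.95 ± 0.11, adjusted p = 2.92e-15). Its 4 values lie in 2 narrow pairs far from each other. Lhx8, a LIM-homeobox factor of oral mesenchyme and basal forebrain, was at 17.8 and 17.7 CPM in Msx1-positive and 0.0658 and 0.112 CPM in Msx1-negative cells (7.63 ± 0.25, adjusted p = 3.43e-12). Tenascin C (Tnc), a matrix glycoprotein of condensing mesenchyme, was at 199.8 and 221 CPM in Msx1-positive and 1.40 and 1.97 CPM in Msx1-negative cells (6.98 ± 0.12, adjusted p = 2.48e-14). Pleiotrophin (Ptn), a heparin-binding growth factor, was at 262 and 246 CPM in Msx1-positive and 2.04 and 2.32 CPM in Msx1-negative cells (6.87 ± 0.099, adjusted p = 2.92e-15). Postn, a matricellular protein of periodontal ligament and periosteum, was at 78.5 and 70.0 CPM in Msx1-positive and 0.592 and 0.0750 CPM in Msx1-negative cells (7.72 ± 0.3, adjusted p = 9.02e-07). The Msx1-negative pair of Postn is uneven, and both of its values lie far below the Msx1-positive pair.

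The other genes among the 15 include no further transcription factor. Epha3, an ephrin receptor, was at 20.7 and 22.5 CPM in Msx1-positive and 0.164 and 0.150 CPM in Msx1-negative cells (7.09 ± 0.16). Aqp1, a water channel, was at 13.9 and 13.7 CPM in Msx1-positive and 0.0987 and 0.112 CPM in Msx1-negative cells (7.01 ± 0.2), and Dio2, the deiodinase that activates thyroid hormone, at 32.5 and 35.1 CPM in Msx1-positive and 0.362 and 0.187 CPM in Msx1-negative cells (6.91 ± 0.15). Sst, which encodes the peptide hormone somatostatin, was at 13.3 and 11.9 CPM in Msx1-positive and 0.132 and 0.0375 CPM in Msx1-negative cells (7.14 ± 0.31). In none of the 15 did the fractions overlap, which follows from choosing called genes with the largest differences. The plot of the highest and lowest genes by library shows the gaps.

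Ambn, Odam and Amtn encode proteins of enamel matrix and of the attachment between gum and enamel, and stand within the same stretch of chromosome 5. Odam (chr5:87885029-87894174) was at 18.3 and 14.2 CPM in Msx1-positive and 0.0658 and 0.112 CPM in Msx1-negative cells (7.50 ± 0.28, adjusted p = 1.38e-11). Amtn (chr5:88376108-88385916) was at 35.6 and 30.6 CPM in Msx1-positive and 0.132 and 0.337 CPM in Msx1-negative cells (7.17 ± 0.25, adjusted p = 6.75e-12). Ambn (chr5:88455991-88468531) was at 16.3 and 14.4 CPM in Msx1-positive and 0.0329 and 0.0375 CPM in Msx1-negative cells (8.70 ± 0.33, adjusted p = 1.58e-11). The windows around their start sites are shown because these neighbours were all among the 15, and they have in common a motif at a like distance from the start. They run from 250 bases before to 50 after the start, on the plus strand, 5′ to 3′, from RefSeq on GRCm38.p6, with each GATTGG in capitals. GATTGG is the reverse complement of CCAATC and so holds a CCAAT box read from the other strand.
Odam, chr5:87884760-87885059: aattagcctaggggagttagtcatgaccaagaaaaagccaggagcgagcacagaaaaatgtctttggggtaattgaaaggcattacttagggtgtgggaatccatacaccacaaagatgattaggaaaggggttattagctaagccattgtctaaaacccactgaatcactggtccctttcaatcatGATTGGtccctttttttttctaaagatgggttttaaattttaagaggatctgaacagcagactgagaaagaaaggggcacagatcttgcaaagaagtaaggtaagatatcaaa
Amtn, chr5:88375858-88376157: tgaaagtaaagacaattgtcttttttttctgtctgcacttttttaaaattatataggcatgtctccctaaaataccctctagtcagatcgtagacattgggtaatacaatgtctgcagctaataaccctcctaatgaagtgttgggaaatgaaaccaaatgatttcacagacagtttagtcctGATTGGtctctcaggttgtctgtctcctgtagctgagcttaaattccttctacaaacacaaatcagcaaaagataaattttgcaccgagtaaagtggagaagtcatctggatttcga
Ambn, chr5:88455741-88456040: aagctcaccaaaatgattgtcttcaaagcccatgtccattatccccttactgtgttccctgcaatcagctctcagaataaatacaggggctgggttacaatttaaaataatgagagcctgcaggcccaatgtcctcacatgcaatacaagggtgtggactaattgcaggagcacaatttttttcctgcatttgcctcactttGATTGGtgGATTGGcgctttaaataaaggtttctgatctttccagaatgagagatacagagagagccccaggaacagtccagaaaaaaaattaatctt
The capitals begin 63 bases before the start in Odam, 67 in Amtn, and 48 and 40 in Ambn. The motif was chosen after these sequences had been seen. Searched on both strands, GATTGG was in 16.6% of all 27025 windows, 1 per gene symbol, and in 20.1% of the 14149 windows of tested genes. Higher genes held it in 18.1% and lower genes in 22.9% of windows. It was in 4 of the 15 highest genes, and 3 of those are the genes it was picked from. A match is a description of letters and not a binding site.

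Dnm3os, a noncoding transcript on the strand opposite to an intron of Dnm3, was at 39.9 and 34.2 CPM in Msx1-positive and 0.0987 and 0.0562 CPM in Msx1-negative cells (8.84 ± 0.25, adjusted p = 6.08e-12). It is the host transcript of the microRNA genes Mir199a-2 and Mir214, whose mature products are known from mesenchyme and skeleton. Their sequences are printed because the host was the third highest gene by this rule, and capitals mark the seed, bases 2 to 8, with which a microRNA pairs to its targets.
miR-199a-5p: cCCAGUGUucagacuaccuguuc
miR-199a-3p: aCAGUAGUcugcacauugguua
miR-214-5p: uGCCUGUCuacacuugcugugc
miR-214-3p: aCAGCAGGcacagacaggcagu
The sequences come from RefSeq on GRCm38.p6, where all 4 lie on the plus strand within Dnm3os (chr1:162217623-162225550), and no seed is shared among them. The libraries count long RNA, so the level of the mature microRNAs was not measured.

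**Figure D2:**
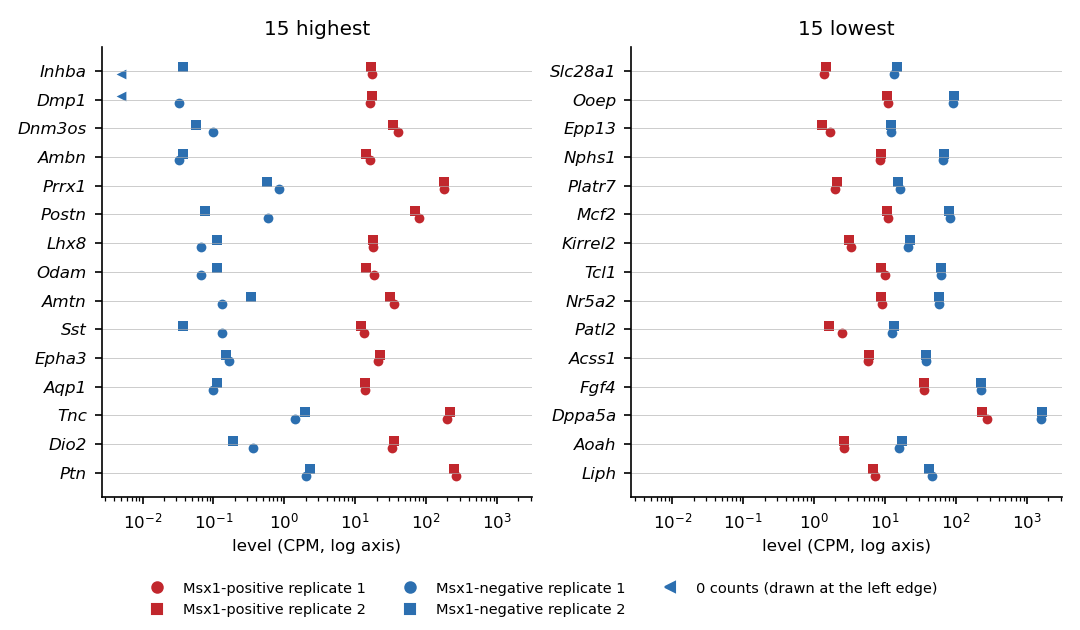
Levels (CPM, log axis) of the 15 genes with the highest and the 15 with the lowest log2 difference, Msx1-positive minus Msx1-negative, with 1 symbol per library. Red symbols are Msx1-positive and blue Msx1-negative libraries. The lack of overlap between the fractions follows from choosing called genes with the largest differences.

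The lowest genes in Msx1-positive cells included genes of pluripotent cells and of the egg, beside a transporter and kidney slit proteins. By the same rule they were Slc28a1, Ooep, Epp13, Nphs1, Platr7, Mcf2, Kirrel2, Tcl1, Nr5a2, Patl2, Acss1, Fgf4, Dppa5a, Aoah and Liph. Fgf4, the growth factor that ES cells secrete to start their own differentiation, was at 35.9 and 35.3 CPM in Msx1-positive and 227 and 224 CPM in Msx1-negative cells (-2.66 ± 0.061, adjusted p = 9.8e-14). Dppa5a, an RNA-binding protein of pluripotent cells, was at 275 and 237 CPM in Msx1-positive and 1570.4 and 1662 CPM in Msx1-negative cells (-2.66 ± 0.088, adjusted p = 8.58e-12). Ooep, part of a complex at the cortex of the egg, was at 11.2 and 10.6 CPM in Msx1-positive and 91.0 and 94.6 CPM in Msx1-negative cells (-3.09 ± 0.083, adjusted p = 4.2e-13). Dppa5a (chr9:78367052-78368177) and Ooep (chr9:78376109-78378725) are near neighbours on chromosome 9.

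Nr5a2, a nuclear receptor that can drive Pou5f1, was at 8.94 and 8.80 CPM in Msx1-positive and 58.1 and 57.7 CPM in Msx1-negative cells (-2.71 ± 0.078). Tcl1, a coactivator of the kinase Akt in ES cells, was at 9.92 and 8.65 CPM in Msx1-positive and 61.9 and 62.3 CPM in Msx1-negative cells (-2.75 ± 0.12). Nphs1, which encodes the kidney slit protein nephrin, was at 8.63 and 8.84 CPM in Msx1-positive and 65.8 and 68.0 CPM in Msx1-negative cells (-2.94 ± 0.12). Its neighbour Kirrel2 (chr7:30447534-30457690, beside Nphs1 at chr7:30458315-30487223) encodes a related protein and was at 3.31 and 3.09 CPM in Msx1-positive and 21.2 and 22.3 CPM in Msx1-negative cells (-2.77 ± 0.16). Slc28a1, a nucleoside transporter, had the lowest fitted difference of the 15, at 1.36 and 1.45 CPM in Msx1-positive and 13.3 and 14.6 CPM in Msx1-negative cells (-3.30 ± 0.17, adjusted p = 3.67e-10). The smallest of the 15 gaps was that of the lipase gene Liph, at 7.32 and 6.76 CPM in Msx1-positive and 46.4 and 41.7 CPM in Msx1-negative cells (-2.65 ± 0.097, adjusted p = 1.07e-11). The noncoding pluripotency-associated transcript Platr7 was lower (-2.93) and so was Mcf2 (-2.92).

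Every core pluripotency gene of the list used here, and all but 1 of the naive list, was lower in Msx1-positive cells, yet none was near 0 there. For core pluripotency, of 13 tested genes 0 were higher and 13 lower (median log2 difference -1.21), beside a median of 0.0625 over all tested genes. All lists were chosen with earlier results of these data known, so their counts and medians describe the members and test nothing. Each list count stands beside 36.7% higher and 29.1% lower among all protein-coding genes. Pou5f1 was at 166 and 174 CPM in Msx1-positive and 553 and 547 CPM in Msx1-negative cells (-1.70 ± 0.055, adjusted p = 3.33e-12). Nanog was at 106 and 92.0 CPM in Msx1-positive and 441 and 421 CPM in Msx1-negative cells (-2.12 ± 0.074, adjusted p = 6.73e-12), and Sox2 at 152 and 160.3 CPM in Msx1-positive and 569 and 555 CPM in Msx1-negative cells (-1.85 ± 0.064, adjusted p = 6.23e-12). Tdgf1, the Nodal co-receptor, had the lowest difference of that list (-2.17 ± 0.056), and Lin28a, an RNA-binding protein that blocks let-7 maturation, the smallest (-0.49 ± 0.053). The summed level of the list was 2035 and 2145 CPM in the Msx1-positive and 5564 and 5527 CPM in the Msx1-negative libraries. How far undifferentiated cells in the Msx1-positive fraction account for that level was not tested.

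In the naive list, of 20 tested genes 0 were higher and 19 lower (median log2 difference -1.5). Esrrb, an orphan nuclear receptor of naive ES cells, was at 203 and 209 CPM in Msx1-positive and 602 and 593 CPM in Msx1-negative cells (-1.54 ± 0.053). Klf2, a zinc-finger factor of the ground state, was at 49.9 and 53.1 CPM in Msx1-positive and 271 and 282 CPM in Msx1-negative cells (-2.43 ± 0.089). Prdm14, which holds DNA methylation low in naive and germ cells, was lower (-2.65), at 4.68 and 4.58 CPM in Msx1-positive and 29.9 and 28.1 CPM in Msx1-negative cells. Spp1, which encodes osteopontin and is also a bone matrix gene, was the 1 exception and was not called, at 429 and 370.0 CPM in Msx1-positive and 428 and 431 CPM in Msx1-negative cells, though it was lower without Msx1-positive replicate 1 (-0.21, adjusted p = 0.0316). Of 18 formative and primed genes, 2 were higher and 13 lower. Otx2, an early epiblast and head factor, was at 20.7 and 16.6 CPM in Msx1-positive and 55.0 and 52.8 CPM in Msx1-negative cells (-1.53 ± 0.11). Sox11 (difference 0.73) and Cldn6 (0.33, adjusted p = 0.00126) were the higher ones, while Fgf5 (-0.20 ± 0.12), the usual marker of that state, was not called.

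ES cells place these levels. On the scale of all 10 libraries, Pou5f1 was at 749.6 and 773 CPM in ES cells, 544 and 539.7 in Msx1-negative and 163 and 172 in Msx1-positive cells. Nanog was at 332 and 364, 434 and 415 and 105 and 90.8 CPM in the same order, so that here the Msx1-negative cells stood above ES cells. Klf2 had the same order, with 133 and 114, 267 and 278 and 49.2 and 52.4 CPM. Tdgf1 stood below ES cells in both fractions, with 1601 and 1629 CPM in ES cells, 914 and 914 in Msx1-negative and 209 and 199 in Msx1-positive cells. Prrx1 and Postn had 0 counts in both ES libraries, and Cdh11, a mesenchymal cadherin, was at 0.424 and 0.510 CPM there. Col1a2, a chain of type I collagen, was at 0.386 and 0.372 CPM in ES cells, 28.1 and 27.3 in Msx1-negative and 1058 and 1169 in Msx1-positive cells. ES cells were not tested against the fractions here.

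**Figure D3:**
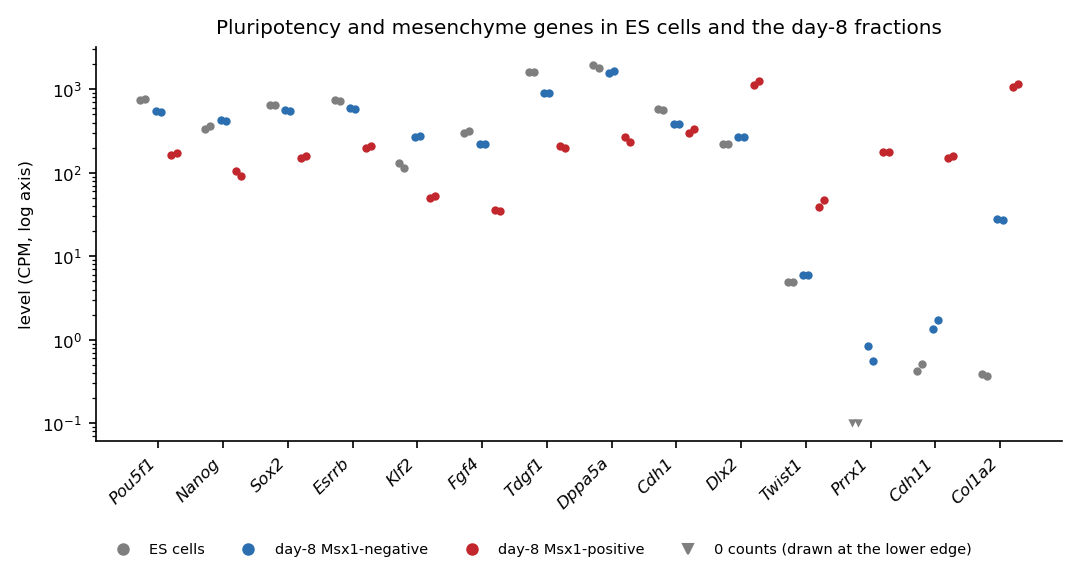
Levels (CPM on the scale of all 10 libraries of the table, log axis) of pluripotency genes, Cdh1, Dlx2 and mesenchyme genes in ES cells (grey), day-8 Msx1-negative cells (blue) and day-8 Msx1-positive cells (red), 2 libraries each. Pou5f1 falls from grey to red, while Col1a2, Cdh11 and Prrx1 are high in red only, with Prrx1 at 0 counts in ES cells.

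Genes of the egg and germline were also mostly lower. Of 20 tested germline and maternal genes 2 were higher and 13 lower. Stra8, which germ cells switch on before meiosis, was at 6.24 and 6.35 CPM in Msx1-positive and 29.2 and 28.8 CPM in Msx1-negative cells (-2.20 ± 0.098). Dppa3, a protector of maternal methylation, was at 5.91 and 4.94 CPM in Msx1-positive and 16.4 and 20.0 CPM in Msx1-negative cells (-1.75 ± 0.14). Among 10 genes of DNA methylation, 2 were higher and 8 lower, or 5 lower when scaled by library size alone. By DESeq2 1 was higher, and the count of higher genes also fell without Msx1-negative replicate 2 or without Msx1-positive replicate 1. Tet1, which oxidises methylcytosine in ES cells, was at 134 and 155 CPM in Msx1-positive and 439 and 421 CPM in Msx1-negative cells (-1.57 ± 0.075), whereas its relative Tet3 was at 91.7 and 112 CPM in Msx1-positive and 29.7 and 30.9 CPM in Msx1-negative cells (1.75 ± 0.1). Dnmt3l, the cofactor of the de novo methyltransferases, was lower (-1.47).

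Transcription factors of face and arch mesenchyme were higher in Msx1-positive cells nearly throughout. In the ectomesenchyme list, of 31 tested factors 29 were higher and 0 lower (median log2 difference 2.85), beside 30.4% and 24.3% of all genes. This list too was chosen with earlier results of these data known, so the count is a description and no test. Among factors of the whole arch mesenchyme, Twist1 was at 39.3 and 47.9 against 6.09 and 6.03 CPM (2.85 ± 0.12, adjusted p = 3.9e-10). Hand2, which marks the lower end of the first arch, was at 26.7 and 33.1 against 0.329 and 0.225 CPM (6.73 ± 0.17, adjusted p = 2.66e-13). Pitx1, of the lower jaw and hindlimb, was at 126 and 147 against 6.28 and 6.78 CPM (4.39 ± 0.094). Barx1, of the molar field and stomach, was at 87.2 and 99.7 against 5.46 and 6.54 CPM (3.97 ± 0.12). Msx2, the relative of Msx1, was at 80.2 and 86.1 against 5.69 and 5.73 CPM (3.86 ± 0.11). In all of these genes, named for large differences or as textbook regulators, both Msx1-positive values exceed both Msx1-negative values by severalfold.

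The Dlx genes, which code position along the arch from upper to lower jaw, were each higher. Dlx1, the linked partner of Dlx2, was at 105 and 117 against 3.13 and 3.49 CPM (5.07 ± 0.093). Dlx5 was at 35.4 and 39.6 against 2.81 and 2.34 CPM (3.86 ± 0.15), and Dlx6, its linked partner, was higher by 3.36. Dlx3 and Dlx4, the third pair, were higher by 1.17 and 2.53. The forkhead genes Foxc1 (3.58), Foxc2 (2.96), Foxf1 (4.0) and Foxd1 (2.50) were higher as well. The 2 genes that were not called were Gsc, of the lower arch, and Alx1, of the upper face. Gsc was at 1.5 and 1.63 against 0.559 and 1.27 CPM, and was higher without Msx1-negative replicate 2 (1.45). With library size alone as the scale, or with no filter on low counts, 30 genes of the ectomesenchyme list were higher. Alx1 was at 0.467 and 0.292 against 0.609 and 0.506 CPM. The related Alx4 was higher by 4.61.

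Neural crest specifiers split. Of 19 tested 14 were higher and 4 lower. Sox9, a crest and cartilage factor, was at 51.7 and 63.5 against 1.94 and 2.06 CPM (4.85 ± 0.12, adjusted p = 2.53e-13). Snai2, a repressor that frees crest cells from the epithelium, was at 19.7 and 18.4 against 1.25 and 0.768 CPM (4.22 ± 0.2). Sox10, which defines migrating crest and its glial and pigment derivatives, was at 1.36 and 2.01 against 0.263 and 0.525 CPM (2.11 ± 0.42, adjusted p = 0.000605). Foxd3, a premigratory crest and ES cell factor, was at 0.141 and 0.0884 against 0.773 and 0.899 CPM (-2.88 ± 0.57). Tfap2c (-0.85), Myc (-0.68) and Mycn (-0.39), which ES cells also express, were the other lower genes. Pax3, of the dorsal neural tube and crest, was at 1.5 and 1.76 against 0.0987 and 0.375 CPM (2.82 ± 0.41). Sox10, Foxd3 and Pax3 were thus low in both fractions, whereas Sox9 was not.

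Factors of epithelial to mesenchymal transition followed the mesenchymal side, with 9 of 10 higher and none lower. Zeb2 was at 31.9 and 30.1 against 2.30 and 2.81 CPM (3.60 ± 0.12), and Zeb1, its relative, differed by 0.71 ± 0.089. Snai1 was at 22.2 and 22.6 against 5.41 and 4.85 CPM (2.12 ± 0.11). Snai3 was not called (-0.31 ± 0.23). The list shares Prrx1, Twist1, Twist2 and Foxc2 with the ectomesenchyme list and Snai1 and Snai2 with that of the neural crest.

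Hox genes, which pattern the trunk and are silent in the first pharyngeal arch, were mostly higher too. Of 39 tested genes 35 were higher and 0 lower (median log2 difference 2.36, or 2.23 with genes at 0 counts set at their lower bound). The only Hox gene above 10 CPM in both Msx1-positive libraries was Hoxb9, at 28.9 and 30.8 against 4.21 and 4.08 CPM (2.85 ± 0.12). Hoxb4 was at 7.44 and 8.53 against 1.73 and 1.29 CPM (2.40 ± 0.16). Hoxa2, the factor of the second arch, was at 0.509 and 0.592 against 0.132 and 0.0937 CPM. The summed level of the list was 94.2 and 102 CPM in the Msx1-positive and 22.1 and 22.2 CPM in the Msx1-negative libraries. Hoxd1 (-0.41 ± 0.29) was among those not called. Among TALE homeobox genes, whose products bind DNA together with Hox proteins, 11 of 18 were higher and 4 lower. Meis2, of the cranial crest, was at 48.3 and 47.5 against 8.64 and 7.59 CPM (2.56 ± 0.078), while Tgif1, a corepressor in Nodal signalling, was lower (-0.60).

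Genes of tooth mesenchyme were higher in 15 of 18 and lower in 2. For odontogenic mesenchyme the median log2 difference was 4.23, or 3.91 with Dspp set at its lower bound. Pax9, required for teeth to pass the bud stage, was at 8.33 and 7.64 against 0.329 and 0.375 CPM (4.50 ± 0.21). Runx2, the master factor of bone and tooth mesenchyme, was at 14.4 and 14.2 against 0.0987 and 0.525 CPM (5.57 ± 0.4). Spock1, a proteoglycan of that list, was at 50.9 and 52.3 against 2.14 and 2.40 CPM (4.51 ± 0.097). Bmp4, the signal that Msx1 maintains in dental mesenchyme, was not called, at 13.7 and 12.3 against 13.9 and 12.5 CPM. Lef1, the nuclear WNT effector of tooth buds, was lower, at 6.15 and 6.17 against 26.0 and 25.5 CPM (-2.06 ± 0.12), and so was Gli1, a target of hedgehog signalling, at 2.59 and 3.10 against 11.1 and 14.2 CPM (-2.14 ± 0.14).

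Mineralised matrix genes were mostly higher, from abundant type I collagen to trace levels of late markers. Of 16 tested odontoblast and bone matrix genes 12 were higher and 1 lower, or 2 lower without Msx1-positive replicate 1. Col1a1 was at 294 and 399.8 against 6.12 and 6.07 CPM (5.83 ± 0.18), and Col1a2 at 1072 and 1185 against 28.5 and 27.7 CPM (5.33 ± 0.084, adjusted p = 4.28e-15). Dspp, the dentine gene that follows Dmp1 in odontoblasts, was at 0.255 and 0.362 CPM in Msx1-positive cells and at 0 counts in Msx1-negative cells, at least 12.2-fold higher, taking 3 counts over the Msx1-negative libraries as the floor. Ibsp, bone sialoprotein and neighbour of Dmp1 on chromosome 5, was at 1.13 and 1.09 against 0.0987 and 0 CPM (4.35 ± 0.45). Osteocalcin, the late osteoblast product, is encoded by near-identical copies, so the reads of Bglap (0.283 and 0.469 against 0 and 0.0750 CPM) may be split among them. Alpl, the phosphatase of mineralisation that ES cells also express, was lower, at 71.9 and 71.7 against 234 and 229 CPM (-1.69 ± 0.07). The enamel list held 9 genes, of which 6 were tested and 3, Ambn, Odam and Amtn, were higher. Enam, Odaph and Sp6 were not called.

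Regulators of bone were mostly higher. Of 13 osteoblast regulators 10 were higher and 1 lower. Sp7, which acts after Runx2, was at 14.3 and 16.2 against 1.66 and 1.76 CPM (3.16 ± 0.12). Bmp2 was at 9.06 and 9.75 against 0.971 and 0.787 CPM (3.41 ± 0.14). Tnfrsf11b, the decoy receptor that restrains osteoclasts, was higher by 4.39, and its ligand partner Tnfsf11 was not called (0.43 ± 0.26). Atf4 was the lower gene (-0.46 ± 0.066). In cartilage, of 22 tested genes 13 were higher and 2 lower (median log2 difference 1.73). Hapln1, a link protein of cartilage matrix, was at 32.4 and 33.2 against 0.559 and 0.337 CPM (6.17 ± 0.17). Col2a1, the main cartilage collagen, was at 46.4 and 56.0 against 14.9 and 14.2 CPM (1.82 ± 0.12), and Acan, the main cartilage proteoglycan, at 20.7 and 27.1 against 18.5 and 17.8 CPM (0.40 ± 0.12, adjusted p = 0.0123). Acan was no longer called without Msx1-negative replicate 1 (0.40, adjusted p = 0.0602), without Msx1-negative replicate 2 (0.34, adjusted p = 0.0986) or without Msx1-positive replicate 2 (0.19, adjusted p = 0.263). Cnmd (5.63) and Matn4 (3.95) were higher, whereas Matn3 (-1.67) and Ihh (-1.36), of growth plates, were lower.

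Collagen genes were nearly all higher. Of 24 tested collagens other than type IV 22 were higher and 2 lower (median log2 difference 4.10). Col3a1 was at 212 and 224 against 2.12 and 2.49 CPM (6.57 ± 0.096), and Col6a1 at 102 and 106 against 0.987 and 1.46 CPM (6.42 ± 0.13). Col5a1 was at 142 and 170.2 against 19.8 and 18.4 CPM (3.03 ± 0.094). The lower ones were Col18a1, of basement membranes, at 318 and 358 against 631 and 625 CPM (-0.89 ± 0.067), and Col6a5 (-1.22). Of 25 genes that process collagen 22 were higher and 1 lower. Lox, which cross-links collagen and elastin, was at 14.98 and 15.7 against 0.296 and 0.262 CPM (5.76 ± 0.14). Bmp1, which trims procollagen, was at 199.97 and 215 against 12.3 and 13.3 CPM (4.02 ± 0.07), and Serpinh1, the collagen chaperone, at 578 and 586 against 200.4 and 209 CPM (1.51 ± 0.055). The procollagen protease Adamts14 was the lower gene (-0.30 ± 0.12, adjusted p = 0.0376). The call was lost with the 4 day-8 libraries alone, library size alone, no filter on low counts or the replicate block. Nor was it called without Msx1-negative replicate 1 (-0.24), without Msx1-positive replicate 1 (-0.31) or without Msx1-positive replicate 2 (-0.30).

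Basement membrane genes moved less, with 12 of 20 higher, 2 lower and a median of 0.79. Lama2 was at 24.1 and 28.7 against 0.477 and 0.468 CPM (5.80 ± 0.18), and Lama4 at 69.3 and 76.7 against 2.39 and 1.82 CPM (5.11 ± 0.12), laminin chains of muscle and vessels. Lama1, the chain of early embryonic membranes, was at 64.3 and 86.5 against 103 and 102 CPM and was not called, though it was lower without Msx1-positive replicate 2 (-0.68, adjusted p = 0.000559) and by DESeq2 (-0.50, adjusted p = 0.0331). The linker protein Nid2 was at 134 and 150.2 against 345 and 349.9 CPM (-1.29 ± 0.071), while its relative Nid1 was higher by 0.45. In the small leucine-rich proteoglycans, of 15 tested genes 11 were higher and 0 lower (median log2 difference 2.69, or 2.61 with genes at 0 counts set at their lower bound). Biglycan (Bgn) was at 199 and 199.6 against 9.23 and 7.27 CPM (4.59 ± 0.092, adjusted p = 3.08e-14), and lumican (Lum) at 3.83 and 3.52 against 0.0658 and 0.0375 CPM (6.07 ± 0.24). Bgn held most of the list's summed level, which was 226 and 226 CPM in the Msx1-positive and 13.8 and 12.1 CPM in the Msx1-negative libraries.

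Of 35 matricellular and elastic fibre genes 32 were higher and 3 lower. Tnn, a tenascin of developing bone, was at 60.7 and 69.2 against 1.55 and 1.93 CPM (5.23 ± 0.13). Fibrillin genes Fbn1 and Fbn2, which form microfibrils, were at 217 and 285 against 9.95 and 11.3 CPM (4.57 ± 0.18), and 235 and 305 against 9.62 and 8.64 CPM (4.88 ± 0.16). Fbln5, which places elastin on those fibres, was higher by 4.72. Tgfbi, a TGF-beta induced matrix protein, was at 383 and 387 against 29.5 and 30.7 CPM (3.68 ± 0.063). Fibronectin (Fn1) went the other way, at 1026 and 1214 against 1686 and 1639 CPM (-0.57 ± 0.088). Ltbp4, a binding protein of latent TGF-beta, was lower (-1.73), and Ltbp3 was higher by 4.33. Of the 40 symbols of the list, 5 older names (Cyr61, Ctgf, Nov, Wisp1 and Wisp2) were not in the count table, which holds the genes as Ccn symbols.

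Proteases and their inhibitors were higher together. Of 32 tested genes of matrix proteolysis 28 were higher and 2 lower. Mmp2, a gelatinase, was at 175 and 179.9 against 32.9 and 33.4 CPM (2.42 ± 0.066). Mmp14, the membrane protease that activates it, was at 118 and 117 against 22.9 and 23.5 CPM (2.35 ± 0.06), and Mmp9, the other gelatinase, at 57.3 and 62.9 against 3.93 and 3.58 CPM (4.0 ± 0.086). Among the inhibitors, Timp2 was at 125 and 132 against 7.34 and 6.88 CPM (4.18 ± 0.07) and Timp3 at 46.9 and 44.3 against 6.83 and 7.195 CPM (2.70 ± 0.071). Adamts5, an aggrecanase, was higher by 6.14. Mmp13, the collagenase of bone, had 0 counts in Msx1-negative cells and 0.396 and 0.354 CPM in Msx1-positive cells, at least 14.1-fold higher. Adam19 (-0.95) and Mmp11 (-0.18, adjusted p = 0.0392) were lower. Mmp11 was no longer called without Msx1-positive replicate 2 (-0.13) and without either Msx1-negative replicate (-0.21 and -0.21). The list also held only 1 lower gene with library size alone as the scale, with no filter on low counts and with the replicate block.

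In the bulk RNA of Msx1-positive cells mesenchymal cadherins were high, and Cdh1 (E-cadherin) was still near its level in Msx1-negative cells. Whether the same cells held both kinds of cadherin was not tested. Cdh11 was at 151 and 163 against 1.38 and 1.76 CPM (6.65 ± 0.096, adjusted p = 2.92e-15), and Cdh2 (N-cadherin) at 67.7 and 71.3 against 11.0 and 10.8 CPM (2.68 ± 0.068). Cdh6, a cadherin of crest and kidney, was higher by 4.77, and Cdh13 by 5.04. Cdh1 was at 299.6 and 334 against 391 and 391 CPM (-0.30 ± 0.063, adjusted p = 0.000846). Cdh5, the endothelial cadherin, differed by -1.77. Cdh3 differed by -0.21 ± 0.066, adjusted p = 0.0157, and was no longer called without Msx1-negative replicate 2 (-0.21) or without Msx1-positive replicate 1 (-0.17). With library size alone as the scale 2 genes of the cadherin list were lower, against 3 in the main fit. Among 24 genes of epithelial junctions and keratins 7 were higher and 10 lower, beside 36.7% and 29.1% of all protein-coding genes. The list median of -0.09 turned to 0.06 when scaled by library size alone. Krt8, a simple-epithelium keratin, was at 246 and 249 against 161 and 164 CPM (0.60 ± 0.052). Epcam, an adhesion protein of ES cells and epithelia, was at 125 and 122 against 198 and 195 CPM (-0.67 ± 0.058), and Grhl2, a factor that keeps junction genes on, at 12.4 and 11.7 against 33.9 and 32.1 CPM (-1.45 ± 0.082).

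Of 21 integrin genes 15 were higher and 2 lower, or 1 lower when scaled by library size alone. The count of lower genes also fell without Msx1-positive replicate 1. Itgb1, the common beta chain, was at 488 and 478 against 224 and 219 CPM (1.13 ± 0.054), and Itgav, an alpha chain that binds fibronectin and latent TGF-beta, at 232 and 252 against 74.4 and 72.9 CPM (1.72 ± 0.064). Itga8, of mesenchyme, was at 14.8 and 12.3 against 0.461 and 0.450 CPM (4.89 ± 0.15). Itgb7 was lower, at 9.39 and 8.82 against 29.6 and 27.3 CPM (-1.64 ± 0.12).

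In the BMP pathway, which patterns the arches and the tooth, of 35 tested genes 29 were higher and 1 lower (median log2 difference 1.82). Among ligands, Bmp3 was higher by 4.51 and Bmp5 by 3.86, while Bmp4 and Bmp7 (-0.04 ± 0.1) were not called. Type I receptor Bmpr1b was higher by 1.58 and Acvr1 by 1.99. The secreted antagonists Grem1 and Sostdc1 were at 6.21 and 6.45 against 0.197 and 0.0375 CPM (5.67 ± 0.25), and 8.33 and 8.49 against 0.230 and 0.0375 CPM (5.89 ± 0.3). Targets of the pathway were higher as well: Id1, an inhibitor of bHLH factors, was at 77.8 and 76.8 against 10.2 and 11.1 CPM (2.86 ± 0.088), and Smad6, a feedback inhibitor, was higher by 2.14. Smad7, the feedback inhibitor of TGF-beta signalling, was the only lower gene (-0.35 ± 0.093, adjusted p = 0.00582), and was not called when scaled by library size alone (-0.20, adjusted p = 0.0645).

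In the TGF-beta and activin pathway genes went both ways. Tgfb1 was at 80.0 and 88.2 against 6.05 and 6.33 CPM (3.77 ± 0.084), and Tgfb2 at 56.0 and 59.8 against 2.20 and 2.90 CPM (4.51 ± 0.1). The receptor Tgfbr2 was at 50.4 and 58.3 against 4.79 and 4.35 CPM (3.57 ± 0.091). On the other side, Nodal, which keeps primed pluripotency, was at 27.3 and 27.3 against 69.8 and 72.3 CPM (-1.38 ± 0.071), and Gdf3, its relative in ES cells, at 25.1 and 25.0 against 89.1 and 87.7 CPM (-1.82 ± 0.076). Inhbb, which encodes the other activin subunit, was lower (-1.21). In the list as a whole, 16 of 28 were higher and 7 lower.

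Endothelin and PDGF signals guide crest cells in the arches. Of 12 endothelin pathway genes 8 were higher and none lower, and of 7 PDGF pathway genes 6 were higher and 1 lower. Ednra, the receptor that sets lower jaw identity, was at 32.2 and 33.1 against 0.855 and 1.07 CPM (5.09 ± 0.11, adjusted p = 4.35e-14). Its ligand Edn1, which arch epithelium makes, was at 1.90 and 1.34 against 1.48 and 2.099 CPM and was not called, while Edn3 was at 14.7 and 13.02 against 0.691 and 0.431 CPM (4.61 ± 0.26). Mef2c, an effector of Ednra, was at 25.1 and 24.9 against 0.345 and 1.05 CPM (5.2 ± 0.26). Pdgfra was at 122 and 131 against 18.1 and 17.1 CPM (2.85 ± 0.07), and Pdgfrb at 48.2 and 54.5 against 2.20 and 2.72 CPM (4.39 ± 0.11). The ligand Pdgfc was higher (2.23 ± 0.089) and Pdgfa lower (-0.56 ± 0.071).

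In the FGF pathway 16 of 27 genes were higher and 6 lower. Fgfr1, the receptor of mesenchyme, was at 285 and 308 against 165 and 157 CPM (0.88 ± 0.058). Fgf10, a ligand made by mesenchyme of teeth and limbs, was at 8.73 and 7.84 against 1.56 and 1.67 CPM (2.36 ± 0.13). Spry1, a feedback inhibitor, was at 137 and 145 against 26.5 and 26.8 CPM (2.40 ± 0.067), and Dusp6, another, was higher by 1.2. Fgf4 and Etv5 (-0.76), an ETS factor of ES cells, were lower.

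The WNT list held 58 genes, of which 40 were higher and 10 lower. Wnt5a, a ligand of outgrowing mesenchyme, was at 113 and 123 against 4.13 and 2.40 CPM (5.16 ± 0.16, adjusted p = 2.49e-09). The antagonists Dkk1 and Frzb were at 206 and 205 against 6.96 and 7.08 CPM (4.87 ± 0.075), and 29.2 and 29.2 against 0.592 and 0.375 CPM (5.89 ± 0.14). Fzd1, a receptor, was higher by 3.84, and Fzd2 by 2.58. Axin2, the general target of canonical signalling, was at 18.96 and 21.1 against 10.3 and 7.40 CPM (1.2 ± 0.13). Lef1, Tcf7 (-0.63), Sfrp1 and Notum, a secreted enzyme that inactivates WNT, were lower. Sfrp1 was at 99.3 and 100.3 against 258 and 251 CPM (-1.35 ± 0.056), and Notum at 3.48 and 3.47 against 18.8 and 18.8 CPM (-2.44 ± 0.13).

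Hedgehog genes went both ways. The co-receptors Boc, Gas1 and Cdon were higher, Boc at 53.5 and 62.5 against 3.75 and 3.77 CPM (3.95 ± 0.095), Gas1 by 2.22 and Cdon by 1.03. Gli3, mainly a repressor, was at 91.3 and 104 against 24.8 and 22.97 CPM (2.03 ± 0.078). The targets Gli1 and Ptch1 were lower, with Ptch1 at 65.1 and 76.9 against 119.7 and 121 CPM (-0.76 ± 0.084), and Gli2, the main activator, was at 19.8 and 24.9 against 57.2 and 55.2 CPM (-1.32 ± 0.092). Shh itself was at 0.396 and 0.336 against 0.0987 and 0.112 CPM. Of the 15 genes 9 were higher and 5 lower.

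Retinoic acid genes were higher in 12 and lower in 4 of 20. Cyp26b1, which breaks retinoic acid down in the face and limb, was at 34.2 and 38.0 against 2.68 and 2.42 CPM (3.82 ± 0.11). Rarb, a receptor and target, was at 4.98 and 5.26 against 0.674 and 0.112 CPM (3.65 ± 0.41), and Aldh1a3, a synthesising enzyme, at 17.1 and 18.9 against 3.21 and 2.49 CPM (2.65 ± 0.17). Rarg, another receptor, was lower (-0.82 ± 0.057). In the Notch list 7 of 17 were higher and 4 lower, near the 36.7% and 29.1% of all protein-coding genes. Hey1 and Heyl, targets, were higher by 1.85 and 2.89, Notch2 was higher by 1.17, and Notch4 (-1.75) and the ligand Dll1 (-1.18) were lower, with Notch1 not called (0.00 ± 0.12).

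Insulin-like growth factor genes included some of the more abundant differences. Igfbp5, a binding protein of mesenchyme and bone, was at 275 and 295 against 8.87 and 11.5 CPM (4.81 ± 0.1). Igfbp4 was at 326 and 337 against 19 and 19.13 CPM (4.12 ± 0.065), and Igfbp3 at 222 and 217 against 26.7 and 27.3 CPM (3.02 ± 0.065). Igfbp2, another binding protein, was lower, at 539 and 592 against 1117 and 1137 CPM (-0.99 ± 0.062). Of 19 genes 12 were higher and 4 lower. Igf2, an imprinted fetal growth factor, was at 109 and 142 against 27.7 and 29.2 CPM (2.14 ± 0.15). Imprinted growth genes, of which 1 parental copy is silent, were higher in 15 and lower in 2 of 18. H19, the noncoding neighbour of Igf2, was at 518 and 507 against 137 and 142 CPM (1.88 ± 0.056). Peg3 was at 2299.7 and 2619 against 714 and 696 CPM (1.80 ± 0.078), and Mest at 1008 and 1011 against 213 and 216 CPM (2.24 ± 0.06). Snrpn (-1.04) and Slc38a4 (-0.29) were lower, Slc38a4 not when scaled by library size alone (-0.13, adjusted p = 0.0553).

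Genes of axon and cell guidance, which also steer migrating crest cells, were higher in 38 and lower in 2 of 42 (median 2.16). Nrp1 and Nrp2, receptors of semaphorins, were at 52.96 and 59.9 against 2.17 and 1.91 CPM (4.78 ± 0.11), and 329 and 366 against 46.3 and 44.1 CPM (2.94 ± 0.071). The semaphorin Sema3a was at 33.9 and 36.1 against 1.45 and 1.65 CPM (4.50 ± 0.14). Unc5c, a netrin receptor, was at 112 and 124 against 2.45 and 1.84 CPM (5.77 ± 0.12), while its ligand Ntn1 was lower, at 12.4 and 14.9 against 44.0 and 40.0 CPM (-1.61 ± 0.11). Epha2, an ephrin receptor that ES cells also carry, was the other lower gene (-0.95 ± 0.066). Of 14 genes of MHC class I presentation 13 were higher and none lower. B2m, the common light chain, was at 79.4 and 59.6 against 16.6 and 17.4 CPM (2.03 ± 0.17). The heavy chains H2-K1 (1.14) and H2-D1 (1.36) are alike in sequence, so reads may be split between them. Tap1, the peptide transporter, was higher by 1.10.

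**Figure D4:**
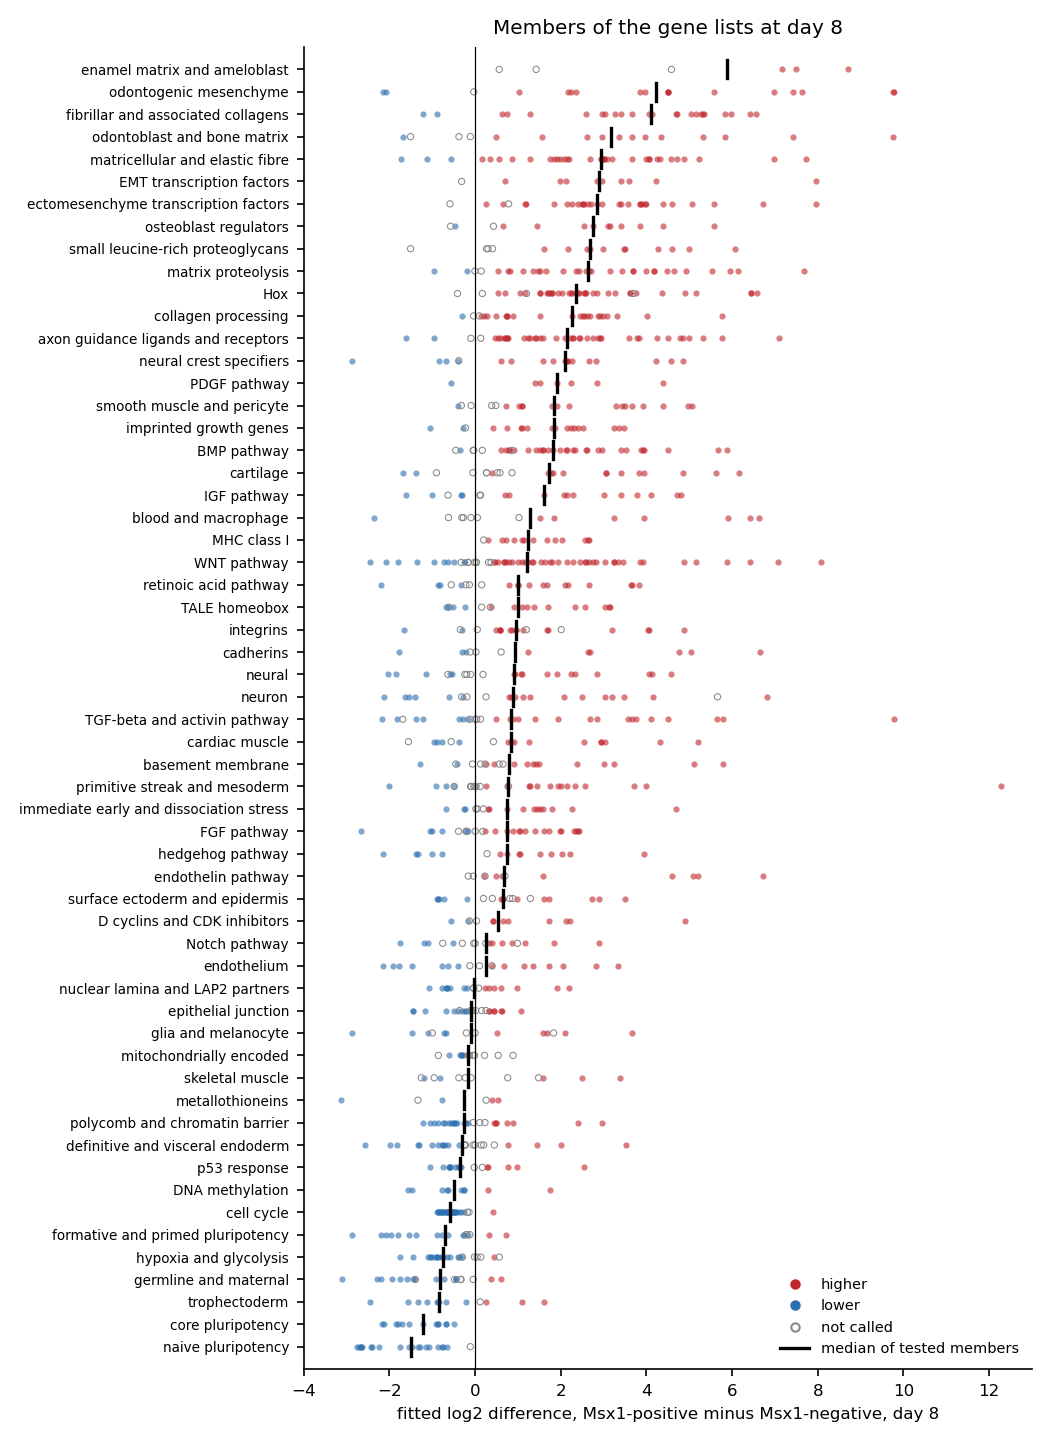
Each row is a gene list and each point a tested member, with its fitted log2 difference at day 8, Msx1-positive minus Msx1-negative. Red members were higher, blue lower and open ones not called, and the black bar is the median of the tested members. Medians run from -1.5 for naive pluripotency to 5.88 for enamel matrix, which has 6 tested members and a median of 4.30 with the member at 0 counts set at its lower bound, and most lists hold members on both sides of 0.

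Genes of DNA replication and mitosis were lower by modest amounts in Msx1-positive cells. Of 30 cell cycle genes 1 was higher and 27 were lower (median -0.58). Mcm2, a subunit of the replicative helicase, was at 373 and 411 against 662 and 678 CPM (-0.77 ± 0.066, adjusted p = 1.31e-07). Pcna, the sliding clamp, was at 222 and 215 against 312 and 311 CPM (-0.51 ± 0.055). Ccnb1, a mitotic cyclin, was at 266 and 258 against 409.6 and 398 CPM (-0.63 ± 0.053). Mki67, the usual proliferation marker, was not called, at 262 and 299 against 322 and 295 CPM, though it was lower without Msx1-positive replicate 2 (-0.24, adjusted p = 0.0292), and Ccne2 was the higher gene (0.41 ± 0.092, adjusted p = 0.0015). The G1 regulators differed: Ccnd2, a D cyclin, was at 404 and 457 against 14.8 and 14.1 CPM (4.89 ± 0.082), with its relative Ccnd3 lower (-0.57 ± 0.059). The inhibitors Cdkn2a and Cdkn2b were at 40.1 and 44.5 against 12.7 and 12.7 CPM (1.74 ± 0.073), and 17.1 and 19.2 against 4.75 and 3.60 CPM (2.12 ± 0.12). Cdkn1a, the inhibitor under p53, was higher by 0.77, while 11 of 18 genes of the p53 response were lower, Sesn2 by the most (-1.06).

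Glycolysis genes were lower. Of 24 tested genes of hypoxia response and glycolysis 1 was higher and 18 lower (median log2 difference -0.74). Pfkp, a phosphofructokinase, was at 198 and 205 against 679 and 673 CPM (-1.74 ± 0.063). Pgk1 was at 518 and 499.8 against 1084 and 1089 CPM (-1.09 ± 0.056), and the glucose transporter Slc2a1 at 366 and 387 against 757 and 776 CPM (-1.03 ± 0.059). Vegfa, an angiogenic target of hypoxia, was the higher gene (0.43 ± 0.063). Of 13 genes of the mitochondrial genome 5 were lower, or 2 when scaled by library size alone, and none was higher. The median of that list, -0.15, turned to 0.01 when scaled by library size alone.

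Immediate early genes, which also answer to cell dissociation and sorting, were higher in 11 and lower in 3 of 17. Egr1 was at 252 and 265 against 89.1 and 92.0 CPM (1.51 ± 0.059), and Jun at 149.9 and 159.7 against 42.7 and 46.3 CPM (1.80 ± 0.069). Fos was at 118 and 114 against 52.1 and 53.7 CPM (1.13 ± 0.065). Hsph1, a heat shock protein, was lower (-0.68 ± 0.055). Both fractions went through the sorter, and the part of handling in these differences was not tested.

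At the nuclear lamina, the lamin genes Lmna and Lmnb1 went apart. Lmna was at 113 and 126 against 24.3 and 28.0 CPM (2.19 ± 0.077), Lmnb1 at 277 and 291 against 456 and 452 CPM (-0.68 ± 0.06) and Lbr, the receptor of B-type lamins, at 175 and 187 against 313 and 305 CPM (-0.77 ± 0.059). Tmpo, which encodes LAP2 proteins, was at 221 and 219 against 253 and 249.7 CPM (-0.19 ± 0.052, adjusted p = 0.00606), and gene counts do not separate its isoforms. With library size alone as the scale Tmpo was not called (-0.04, adjusted p = 0.581). Of 18 genes 7 were higher and 8 lower, beside 36.7% and 29.1% of all protein-coding genes. The list median of -0.03 turned to 0.12 when scaled by library size alone. Among 25 genes of Polycomb and repressive chromatin 7 were higher and 15 lower. Jarid2, a Polycomb cofactor of ES cells, was at 267 and 297 against 661 and 647 CPM (-1.21 ± 0.065). Ezh2, the H3K27 methyltransferase, was lower (-0.61 ± 0.058), as was Trim28, a corepressor of zinc-finger proteins, at 1072 and 1239 against 2370.2 and 2382 CPM (-1.04 ± 0.073). The Polycomb reader Cbx8 was higher by 2.41, while Cbx7, the form of ES cells, was lower (-0.41).

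Markers of other cell types are given by their counts, beside 54.7% called among all tested genes and, among protein-coding genes, 36.7% higher and 29.1% lower. Smooth muscle and pericyte genes were higher in 15 and lower in 1 of 20, or 2 without Msx1-positive replicate 2, with Cspg4 at 47.5 and 59.2 against 1.63 and 1.57 CPM (5.06 ± 0.19) and Rgs5 at 35.4 and 32.8 against 1.12 and 1.03 CPM (4.98 ± 0.12), while the contractile genes Acta2 (7.53 and 7.73 against 1.05 and 0.468 CPM) and Myh11 (0.608 and 0.504 against 0.444 and 0.393 CPM) stayed low. The summed level of that list was 1239.8 and 1212 CPM in the Msx1-positive and 379 and 384 CPM in the Msx1-negative libraries. Cardiac genes were higher in 10 and lower in 4 of 17. Tbx5 was at 4.60 and 5.17 against 0.296 and 0.187 CPM (4.31 ± 0.3) and Isl1, of heart and jaw progenitors, at 7.48 and 6.70 against 0.576 and 1.2 CPM (3.03 ± 0.25), but the troponin Tnnt2 was at 0.439 and 0.707 against 0.329 and 0.150 CPM. Their summed level was 126 and 138 CPM in the Msx1-positive and 57.6 and 62.9 CPM in the Msx1-negative libraries. Of 12 skeletal muscle genes 3 were higher and 2 lower, and Myod1 was at 0.424 and 0.0884 against 0.0987 and 0.0750 CPM.

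Endothelial genes were higher in 8 and lower in 7 of 18. Kdr, the VEGF receptor, was at 8.81 and 8.83 against 2.53 and 2.81 CPM (1.72 ± 0.15), whereas Pecam1, which ES cells share, was at 55.2 and 56.6 against 151 and 157 CPM (-1.46 ± 0.061). The summed level was 219 and 231 CPM in the Msx1-positive and 339.6 and 347 CPM in the Msx1-negative libraries. In blood, of 14 tested genes 7 were higher and 1 lower (median log2 difference 1.28). With the 4 day-8 libraries alone, by DESeq2 or with RLE scaling 2 were lower, and the count of lower genes also rose without Msx1-negative replicate 1. The embryonic globin Hba-x was at 2.76 and 1.71 against 0.0329 and 0.0375 CPM (5.90 ± 0.45), and globin copies are alike enough for reads to be split. Runx1, which is also active outside blood, was at 42.4 and 49.6 against 4.36 and 5.30 CPM (3.26 ± 0.11) and was much of the list's summed level in Msx1-positive cells. That level was 73.2 and 76.9 CPM in the Msx1-positive and 25.0 and 31.1 CPM in the Msx1-negative libraries. Hba-a2, Hbb-bt, Hbb-bs, Adgre1, Tyrobp and Ptprc had 0 counts in Msx1-negative cells, and no marker of the list had 0 counts in Msx1-positive cells. Of the 20 listed genes 14 were tested, and 1 of these had 0 counts in 1 fraction and more than 3 in the other. Total counts were 65655287 and 107770730 in the Msx1-positive and 63489887 and 56048918 in the Msx1-negative libraries. The part of depth in this contrast was not tested.

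Endoderm genes were higher in 4 and lower in 12 of 24. Cubn, an uptake receptor of visceral endoderm, was at 10.6 and 13.8 against 71.9 and 74.6 CPM (-2.57 ± 0.13). Foxa2, of definitive endoderm, was at 0.891 and 0.972 against 0.971 and 0.712 CPM, and Sox17 at 1.97 and 2.08 against 2.91 and 3.35 CPM. The summed level was 178 and 195 CPM in the Msx1-positive and 282 and 279.6 CPM in the Msx1-negative libraries. Trophectoderm genes were higher in 3 and lower in 9 of 13, with Cdx2 at 1.46 and 1.73 against 2.48 and 2.62 CPM and Plac1 at 4.75 and 3.83 against 12.3 and 12.98 CPM (-1.57 ± 0.14). Their summed level, 3433 and 3864 CPM in the Msx1-positive and 1928 and 1834 CPM in the Msx1-negative libraries, is mostly that of the imprinted Peg10. Prl3d1 and Rhox9 had 0 counts in Msx1-negative cells. Of the 16 listed genes 13 were tested, and none of these had 0 counts in 1 fraction and more than 3 in the other. Surface ectoderm genes were higher in 9 and lower in 5 of 19, with Krt14 at 1.13 and 1.36 against 0.576 and 0.787 CPM and Trp63 at 0.424 and 0.530 against 0.263 and 0.468 CPM, and the summed level was 385 and 392 CPM in the Msx1-positive and 466 and 480.4 CPM in the Msx1-negative libraries.

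Neural and neuronal genes went both ways. Of 22 tested neural genes 12 were higher and 5 lower, and of 22 neuronal genes 12 were higher and 6 lower. Nestin (Nes), an intermediate filament of progenitors that odontoblasts also make, was at 43.0 and 48.7 against 10.7 and 8.68 CPM (2.24 ± 0.1). Gad1, the enzyme of GABA synthesis and a gene of Dlx-driven forebrain neurons, was at 14.4 and 14.9 against 1.28 and 1.35 CPM (3.48 ± 0.18). Dcx, of migrating neurons, was at 8.28 and 7.97 against 0.0987 and 0.0375 CPM (6.82 ± 0.31), while Stmn2, of growing axons, was lower, at 64.6 and 58.1 against 193 and 188 CPM (-1.64 ± 0.12). The summed level of the neural list was 304 and 329.6 CPM in the Msx1-positive and 698 and 681 CPM in the Msx1-negative libraries, higher in Msx1-negative cells although more of its genes were higher in Msx1-positive cells. The summed level of the neuronal list was 299.7 and 298 CPM in the Msx1-positive and 352 and 355 CPM in the Msx1-negative libraries. Of 14 tested glia and melanocyte genes 5 were higher and 5 lower, with Kit at 44.4 and 42.8 against 122 and 119 CPM (-1.47 ± 0.06). Their summed level was 103 and 103 CPM in the Msx1-positive and 201 and 201 CPM in the Msx1-negative libraries, and the list median of -0.10 turned to 0.06 when scaled by library size alone. Genes of the primitive streak and mesoderm were higher in 14 and lower in 4 of 26, or 2 lower without Msx1-positive replicate 1. Osr1, of intermediate and lateral mesoderm and of arch mesenchyme, was at 9.06 and 9.24 CPM in Msx1-positive cells with 0 counts in Msx1-negative cells, at least 349-fold higher. The part of other cell types in the differences between the fractions was not tested.

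Most calls at day 8 returned at day 16, in other libraries. Of the 6772 genes higher at day 8, 5212 were also higher in Msx1-positive cells at day 16 (77.0%, or 75.1% of the 6943 called higher then), where 31.1% of all tested genes were higher. Of the 5415 lower genes, 4213 were also lower (77.8%, or 61.0% of 6904), against 31% of all tested genes. The opposite direction was called for 396 and 196. All 15 highest and all 15 lowest genes of day 8 were called the same way at day 16.

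The sizes often differed. Tested as the day-8 minus the day-16 difference, the signed value was higher at day 8 for 4090 genes and lower for 2294, together 28.6% of 22294. With library size alone as the scale the split was 5912 and 1088. The core factors Pou5f1, Nanog and Sox2 were closer between the fractions at day 8. Pou5f1 differed by -1.70 ± 0.055 at day 8 and by -4.37 ± 0.064 at day 16, a change of 2.67 ± 0.08 (adjusted p = 3.69e-11). In Msx1-positive cells of day 16 it was at 16.1 and 16.7 CPM. The change was 2.60 ± 0.11 (adjusted p = 4.17e-10) for Nanog and 2.03 ± 0.091 (adjusted p = 1.14e-09) for Sox2. Cdh1 differed by -1.24 ± 0.064 at day 16, more than at day 8 (change 0.94 ± 0.09, adjusted p = 2.09e-06).

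Some mesenchymal genes had the larger gap at day 8. For Prrx1 the gap was 7.95 ± 0.11 at day 8 and 5.93 ± 0.08 at day 16, with 618 and 619.6 CPM in Msx1-positive and 10.2 and 10.04 CPM in Msx1-negative cells by then (change 2.02 ± 0.15, adjusted p = 1.51e-07). For Cdh11 the change was 1.58 ± 0.12 (adjusted p = 3.1e-07). Dlx2 also had a larger gap at day 8 (0.97 ± 0.12, adjusted p = 2.09e-05), and was at 292 and 345 CPM in Msx1-positive cells at day 16. Twist1 had the smaller gap at day 8 (-0.69 ± 0.17, adjusted p = 0.0071), and the reporter gene Msx1 likewise (-1.73 ± 0.3, adjusted p = 0.000832). Col1a2 (0.03 ± 0.1, adjusted p = 0.847), Dmp1 (-0.05 ± 0.48, adjusted p = 0.962) and Postn (1.54 ± 0.48, adjusted p = 0.0578) did not pass the test of a difference between days, though their levels did not stay alike: Dmp1 was at 259 and 248 CPM in Msx1-positive cells at day 16.

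The 5 genes with the most negative change were all under 10 CPM in every day-8 library. Ibsp reached 53.8 and 58.6 CPM in Msx1-positive cells at day 16, from 1.13 and 1.09 CPM at day 8 (change -7.22 ± 1.33, adjusted p = 0.000971). That fitted change rests on 6 counts at day 8 and on 0.0332 and 0 CPM at day 16 in Msx1-negative cells and is no measure of size. Ogn, a proteoglycan also called osteoglycin, was at 0.354 and 0.486 CPM at day 8 and 53.02 and 57.9 CPM at day 16 in Msx1-positive cells (change -4.39 ± 0.71, adjusted p = 0.000473). Clec11a, a bone growth factor, was lower in Msx1-positive cells at day 8 (-0.66 ± 0.2, adjusted p = 0.0117) and higher at day 16 (4.03 ± 0.2), a change of -4.68 ± 0.28 (adjusted p = 2.07e-08). At day 8 it was no longer called without Msx1-negative replicate 2 (-0.42, adjusted p = 0.147) or without Msx1-positive replicate 1 (-0.58, adjusted p = 0.059). Insc was not called at day 8 (0.05 ± 0.22, change -4.28 ± 0.33, adjusted p = 2.41e-07). Sfrp4, a WNT antagonist, was lower at day 8, at 2.50 and 2.36 against 7.68 and 9.28 CPM, and higher at day 16 (1.89 ± 0.15, change -3.70 ± 0.22, adjusted p = 2.1e-08).

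Those with the most positive change were mostly genes that appeared in Msx1-negative cells by day 16. Gkn2, a gastric secretory protein, was at 0.0283 and 0.177 against 0.0329 and 0 CPM at day 8 and at 26.6 and 22.6 CPM in Msx1-negative cells of day 16 (change 10.85 ± 1.11, adjusted p = 1.45e-05). Ugt2b34, a glucuronosyltransferase (7.91 ± 0.71, adjusted p = 1.09e-06), Wfdc1 (7.28 ± 0.48, adjusted p = 5.8e-08) and Tcf23 (6.46 ± 0.58, adjusted p = 1.92e-06) had the same pattern, with 16.4 and 14.1 CPM for Ugt2b34, 11.1 and 10.7 CPM for Wfdc1 and 10.6 and 11.2 CPM for Tcf23 in those libraries. The fitted changes of Gkn2 and Ugt2b34 rest on 2 and 5 counts in Msx1-negative cells of day 8 and are no measure of size. Osr1 was the exception, high in Msx1-positive cells at both days, with 21.8 and 23.3 CPM there and 1.46 and 1.19 CPM in Msx1-negative cells at day 16. Its fitted change depends on the 0 counts in Msx1-negative cells of day 8, and is no measure of size.

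**Figure D5:**
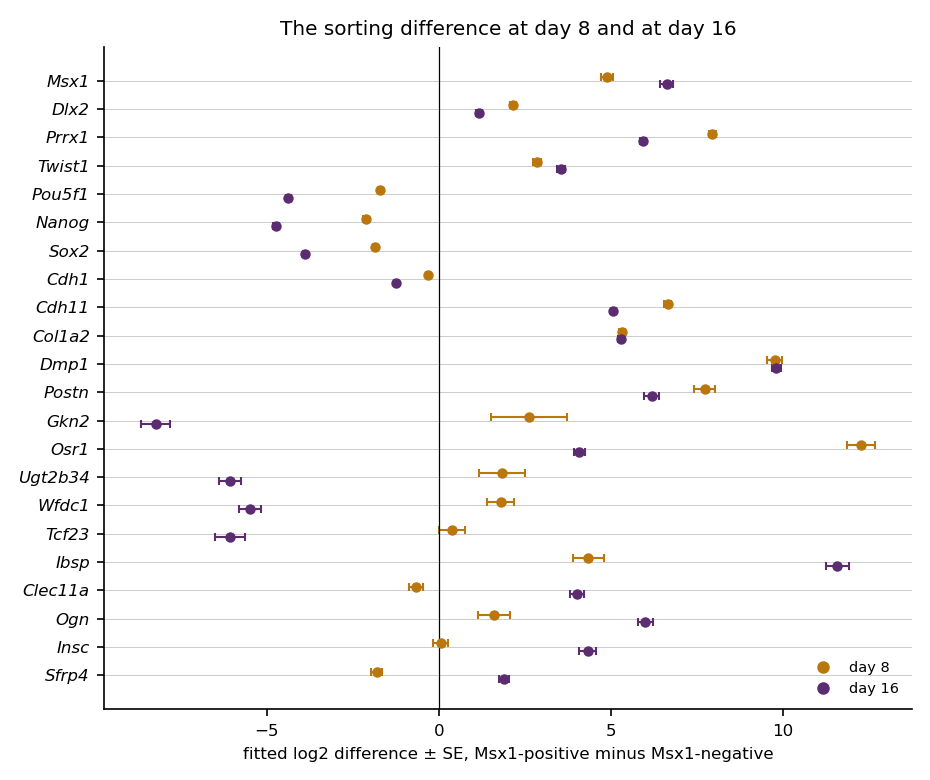
Fitted log2 difference ± SE, Msx1-positive minus Msx1-negative, at day 8 (orange) and day 16 (purple), for 12 genes chosen by role and the 10 with the largest change in either sense. Pou5f1, Nanog and Sox2 lie further left at day 16, Col1a2 and Dmp1 overlap, and the fitted day-8 values of Dmp1, Osr1 and Gkn2 rest on 2 or fewer counts in Msx1-negative cells.

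Per kilobase of exon, transcripts of translation and mitochondria led in both fractions. Hsp90ab1 and Gm23935 were also among the 10 highest of each, and Ptma among those of Msx1-positive cells. The level of mt-Co1, a respiratory subunit, per kilobase was 5102 CPM in the Msx1-positive fraction and 6434 CPM in the other. Eef1a1, an elongation factor, was at 3294 and 4337, and Rplp1, a ribosomal stalk protein, at 2149 and 3813. Dppa5a was among the 10 highest in Msx1-negative cells alone, at 2611 against 413 CPM per kilobase. Among mesenchymal genes the levels in Msx1-positive cells were 90.8 for Col1a2, 74.0 for Ptn, 17.6 for Cdh11, 16.1 for Prrx1 and 14.3 for Msx1, beside 75.6 for Pou5f1 in the same cells.

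Homeodomain proteins bind cores such as TAATTA, which reads the same on both strands, and bHLH factors such as Twist1 bind E-boxes, CANNTG. In the windows around start sites TAATTA was found in 3.004% of 14149 tested genes with a window, 2.51% of the higher and 2.92% of the lower ones. E-boxes were found in 65.7%, 63.7% and 64.0%. Among genes higher by a log2 difference of 2 or more the shares were 3.89% for TAATTA and 67.7% for E-boxes, and among genes lower by 1 or more 4.67% and 74.4%. These sets also differed in base content. Their median number of CG pairs per window was 12 and 8, against 18 in windows of tested genes and 7 in all 27025 windows. In all windows TAATTA was found in 5.32% and E-boxes in 72.1%. These shares were not tested, and sites outside these windows were not searched.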

How the data were processed

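Total RNA of sorted cells was sequenced from a library kit that does not mark strand (NEBNext Ultra RNA), per the labels' protocols. The deposited table holds raw counts per gene symbol, made by the authors, 1 column per library. Tools listed in the submitters' processing notes, without role, are HISAT2 2.1.0, fastp 0.20.0 and DESeq2 1.18.1, and the build is GRCm38. Neither counting program nor annotation is given in the sources used here. Samples were grouped by their labels, and the table of day-2 samples was not used.

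The 8 sorted libraries (4 groups, days 8 and 16) were fitted together with edgeR 4.0.16 (limma 3.58.1, R 4.3.3): filterByExpr, TMM scaling, the robust quasi-likelihood test, and Benjamini-Hochberg adjustment over all 22294 genes that passed the filter. The change between days is the interaction in that fit. The SE is the log2 difference divided by the square root of the F statistic. The fit was also run on simulated counts, in which a small set of well-expressed genes was changed, as many up as down. That setting is unlike these data and does not check the scaling or calls on few counts. CPM uses the TMM library size. A floor of 3 counts stands in where a fraction had none, and ratios on few counts carry exact 95% intervals, both for counting error only. The alternatives tried were RLE scaling, library size alone, DESeq2 1.42.0, other filters on low counts, the 4 day-8 libraries alone, each library left out, a replicate block and a log2 threshold.

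The members and gene lists were chosen with earlier results of these data known. The genes named are Msx1 and Dlx2, the 15 highest and 15 lowest called genes with both libraries of the higher fraction at 10 CPM or more, the 10 highest per kilobase of exon (of which a few are named), members of 59 lists (for each, those with the largest differences, those of opposite sign and textbook regulators), and for the comparison with day 16 a set chosen by role and the 5 with the most positive and the 5 with the most negative interaction. Results of a few members are not reported here. The histone list held 1 symbol of the table and none that was tested. GENCODE release 21 matched 53263 of 54114 symbols and gave coordinates, biotypes and exon lengths. Promoter windows are those of RefSeq, 1 per symbol, the one nearest the GENCODE 5′ end. Since the kit does not mark strand and the counting is not stated, reads may be shared where annotated exons overlap, which holds for 86 of the 291 genes named: Tnc, Dio2, Dnm3os, Nphs1, Pou5f1, Lin28a, Spp1, Otx2, Dnmt3l, Hand2, Pitx1, Dlx1, Dlx6, Dlx4, Foxf1, Alx1, Foxd3, Zeb2, Zeb1, Hoxa2, Pax9, Runx2, Bmp4, Lef1, Gli1, Matn4, Col3a1, Col5a1, Lox, Lama2, Nid2, Nid1, Fbn1, Fbn2, Fn1, Ltbp3, Timp3, Adam19, Mmp11, Krt8, Grhl2, Itgav, Itga8, Bmp5, Tgfb2, Ednra, Edn1, Pdgfra, Pdgfc, Pdgfa, Fgfr1, Fgf10, Spry1, Wnt5a, Axin2, Notum, Gas1, Gli3, Shh, Rarb, Notch2, Dll1, Notch1, Igf2, H19, Mest, Snrpn, Nrp1, Unc5c, Tap1, Ccne2, Ccnd2, Ccnd3, Cdkn1a, Pfkp, Slc2a1, Jun, Lbr, Tmpo, Ezh2, Cbx7, Runx1, Cubn, Sox17, mt-Co1 and Eef1a1.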

Additional observations from a re-analysis of the deposited data

Results flagged for a closer look

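The difference between the fractions itself differed between days 8 and 16 by edgeR's interaction test in 4090 genes with a higher signed value (Msx1-positive minus Msx1-negative) at day 8 and 2294 with a lower one. The days are separate harvests, so day and harvest cannot be told apart. Among genes named for their role, the log2 change of the difference, day 8 minus day 16, was -1.73 for Msx1, -0.69 for Twist1, 0.97 for Dlx2, 2.02 for Prrx1 and 1.58 for Cdh11. It was 2.67 for Pou5f1, 2.60 for Nanog, 2.03 for Sox2 and 0.94 for Cdh1, genes that were lower in Msx1-positive cells on both days and less so at day 8.

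The genes with the most positive change were Gkn2 (10.8), Osr1 (8.19), Ugt2b34 (7.91), Wfdc1 (7.28) and Tcf23 (6.46). Those with the most negative change were Ibsp (-7.22), Clec11a (-4.68), Ogn (-4.39), Insc (-4.28) and Sfrp4 (-3.70), genes that were under 10 CPM in every day-8 library. The fitted values of Osr1, Gkn2, Ugt2b34 and Ibsp rest on 0, 2, 5 and 6 counts in day-8 Msx1-negative cells and give no size. With 2 libraries a group, no group was large enough to be searched for a library that stands apart.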

How the results depend on the processing

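A threshold of 1 on the absolute log2 difference left 3827 higher and 1317 lower genes. With library size alone, 8071 were higher and 4016 lower, and the interaction gave 5912 and 1088. Leaving out each day-8 library in turn gave 5785 to 6339 higher and 4783 to 4936 lower genes, and leaving out each of the 8 libraries gave 3427 to 3849 and 1824 to 2297 for the interaction. Among the other alternatives, DESeq2 gave 6052 and 5542, and the filter of 1 CPM in 4 libraries 5593 and 5303.

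Deviations of same-numbered libraries correlated at -0.0425 at day 8 and -0.237 at day 16. These correlations cannot show whether same-numbered libraries shared a culture or sort, because the numbers need not follow the cultures. Pairing of the libraries was therefore not settled. With the replicate block 6328 genes were higher and 5020 lower, and 3483 and 1800 for the interaction. A crossed block at day 16, added after seeing the data, gave 3974 and 2336. Replicates differed by more than sampling noise, with a chi-square per degree of freedom of 5.49 to 18.5.

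Of 291 genes named, 272 kept their direction and side of the threshold in every alternative that tested them, and none reversed. Of 106 list counts 20 moved by over 1.5 times somewhere. The filter of 1 CPM tested fewer genes and left 22 higher Hox genes, 6 proteoglycans and 2 glia genes. With library size alone, 4 genes of the TGF-beta list and 1 immediate early gene were lower, and 3 hypoxia genes were higher. The 2 libraries of a fraction and their depth limit calls of small differences and of genes with few counts.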
